A study of Danio rerio with 4 samples.

Results

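A set of 4 genes was followed in RNA precipitated with Ddx3xb from early zebrafish embryos: the histone variant genes h3f3a and h2ax, the linker histone gene h1m, and NASP, which encodes a histone chaperone. They were chosen by name. Symbols were assigned through a reference that pairs Ensembl gene IDs with zebrafish symbols, ignoring case. Of these 4 genes, 3 were among the 27205 gene IDs of the deposited tables. The ID paired with h1m (ENSDARG00000102892) was in neither table, none of its 4 RefSeq synonyms matched a listed symbol, and h1m has no value here. All 3 listed genes passed the filter on low values, at least 1 RPKM in either table, as did 13341 genes in all.

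The embryos, of wild-type genotype per the labels, had received mRNA encoding a FLAG-tagged Ddx3xb by injection and were collected at 2 or 4 hours post-fertilization (hpf). Ddx3xb is a DEAD-box RNA helicase, a family of enzymes that unwind RNA and remodel its complexes with proteins. RNA bound to anti-FLAG beads was sequenced from 4 samples, 2 biological replicates at each age. All 4 carry the injected mRNA in the protocol, yet their descriptions also call them control, with nothing to say of what. Neither an input nor a mock precipitate was analysed here, so a value is the abundance of a transcript in the precipitate, not its enrichment over the RNA of the embryo. In such bulk material, fewer cells with a transcript and less of it per cell cannot be told apart.

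Values are RPKM, the reads of a gene scaled to its length and to the number of reads, deposited as 1 mean per gene and age. No replicate value, SD or count stands behind them. The depth of each sample is therefore unknown, no difference below was tested, and "higher" and "lower" compare 2 means. The 10 highest entries made up 82.1% of all RPKM in the 2 hpf table and 62.3% in the 4 hpf table, which affects the scale of every other gene. The embryo labels were checked against fixed markers. Of 11 markers of differentiated tissues, 7 were listed and 1 reached 1 RPKM, and the list summed to 2.72 and 0.621 RPKM in the 2 hpf and 4 hpf tables. The markers fabp10a and ins were each missing from 1 table. Of 12 early zygotic genes, 6 were matched to a listed ID and all 6 were lower in the 4 hpf table, with sums of 269 and 62.8 RPKM. Of 7 maternal and germ plasm genes, 6 were higher there and NANOS3 was lower, with sums of 124 and 520 RPKM. Zygotic transcripts normally accumulate with age in the embryo, while these sums, which are from the precipitate, run against the age labels. The labels may have been exchanged, which was not tested. If they were, each direction below would turn, with NASP lower and h3f3a higher at the later age. The tables are named throughout by the ages in their labels (2 hpf table, 4 hpf table), and the part of these shifts in the differences of histone genes and NASP was not tested.

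Histones package DNA into nucleosomes. Core histones supplied by the egg and their transcripts serve the rapid first divisions of the fish embryo, before its own genome is active. Variants differ from the histones made during DNA replication: H3.3 is placed on chromatin outside replication, H2A.X is phosphorylated beside DNA breaks, and H1M is an embryonic linker histone of the egg. Chaperones hold histones until they are deposited, and NASP, known in mammals for keeping a soluble reserve of H3 and H4, is one of them. Positions are not given, because the processing notes name build Zv9 and no annotation of that build was used.

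The 3 listed genes took 3 separate courses. NASP (ENSDARG00000039208) was at 263 RPKM in the 2 hpf table and 1422 RPKM in the 4 hpf table, 5.41-fold higher at the later label. h2ax (ENSDARG00000029406) was at 75.7 and 132 RPKM, 1.74-fold higher. h3f3a (ENSDARG00000020504) was at 39.5 and 9.25 RPKM, 4.28-fold lower. NASP and h3f3a thus lay on opposite sides, and h2ax stayed near the middle of all genes.

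**Figure D1:**
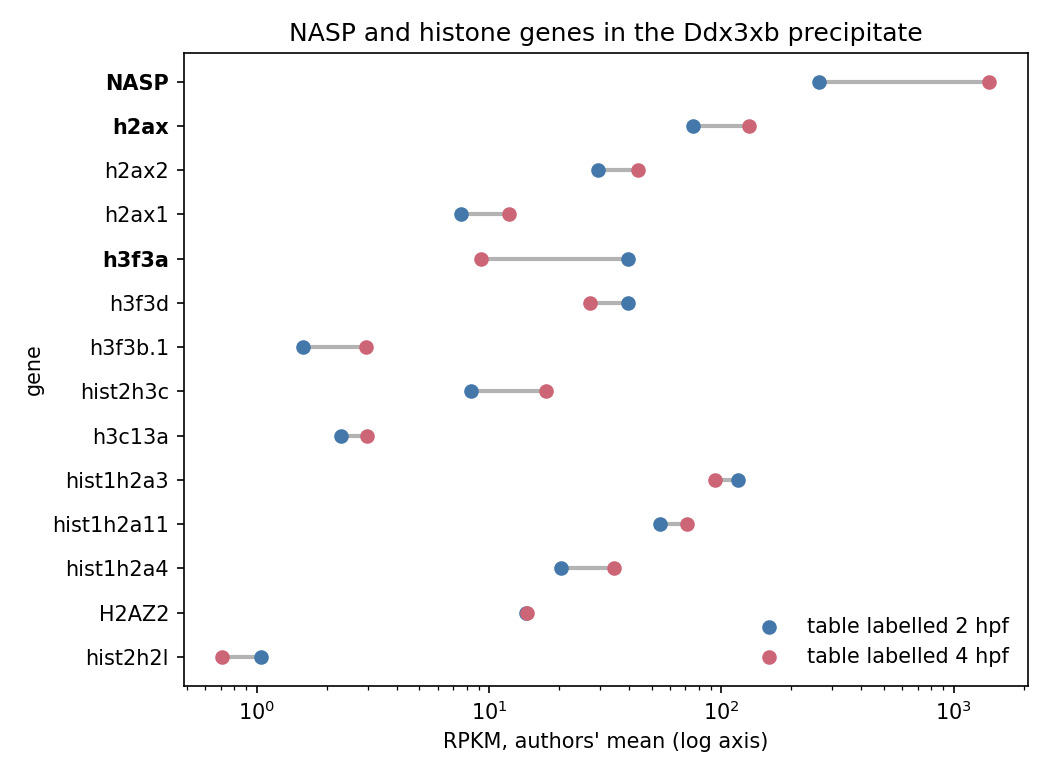
Authors' mean RPKM (log axis) of NASP and of the 13 histone genes that reached 1 RPKM in either table, 1 row per gene, with the 2 hpf table in blue and the 4 hpf table in red. NASP runs from 263 to 1422 RPKM, h3f3a from 39.5 down to 9.25 RPKM, and the other histone genes move less.

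Values were then put on a log2(RPKM + 1) scale, the 2 hpf table was subtracted from the 4 hpf table, and the differences were set against those of all genes. This scale understates the change of low genes. The median difference over 13341 genes was 0.66, equal to 1.58-fold. Differences of 1 or more in size, meaning 2-fold, counted as calls. By that rule 33% of genes were called higher in the 4 hpf table and 10.9% lower. Of the 3 listed genes, NASP was called higher, h3f3a was called lower and h2ax was not called. Measured from the median of all genes instead, 7.85% were 2-fold or more above it, NASP among them, and 21.2% were 2-fold or more below it, h3f3a among them. Calls depend on the level required. Among the 4565 genes that reached 10 RPKM in either table, as all 3 did, 57.4% were called higher and 6.79% lower, and the median difference was 1.15. A gene can pass such a filter through a single table, so the filter itself favours genes that differ. For example, h3f3a reached 10 RPKM only in the 2 hpf table. How much of the shift in shares comes from this was not tested.

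NASP had a difference of 2.43, which was 1.77 above the median of all genes and ranked 28 of 13341. Genes with at least 10 RPKM placed it at 18 of 4565, and among the 344 genes with at least 100 RPKM, whose median difference was 1.23, it was the fifth highest. Its level rank went from 47 to 12 among all entries, and from 19 to 4 among entries with a symbol. Few transcripts in the precipitate combined so high a level with so wide a difference between the tables. The difference ran from 1.40 to 2.999 over the settings tried, and NASP was called higher under each of them. Its percentile among the genes compared ran from 98.5, with pseudocount 0.1, to 99.99, with quantile normalization.

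The H3.3 gene h3f3a had a difference of -1.98, or -2.65 relative to the median of all genes. Counted from the lowest difference, it was at 350 of 13341, and at 158 of 4565 among genes with at least 10 RPKM. The second rank partly follows from the filter, since h3f3a reached 10 RPKM only in the 2 hpf table. Such ranks also depend on the setting. The percentile of h3f3a was 2.62 in the main setting, 0.82 with pseudocount 5 and 8.74 with pseudocount 0.1. Its level rank went from 467 to 4466. Over the settings tried the difference ran from -2.88 to -1.60, so the direction was kept, although -1.98 falls just short of a 4-fold threshold.

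For h2ax the difference of 0.79 was 0.13 above the median of all genes, at percentile 56.2. Compared only with genes of at least 10 RPKM it was at percentile 33.1. Its direction turned with the scaling of the tables: it was 1.19 with both tables brought to the same sum, -0.0052 when the sums without the 100 highest genes were made equal, -0.09 with quantile normalization and -0.23 under median-ratio scaling. Level ranks of 192 and 215 place h2ax among the abundant transcripts of both tables.

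**Figure D2:**
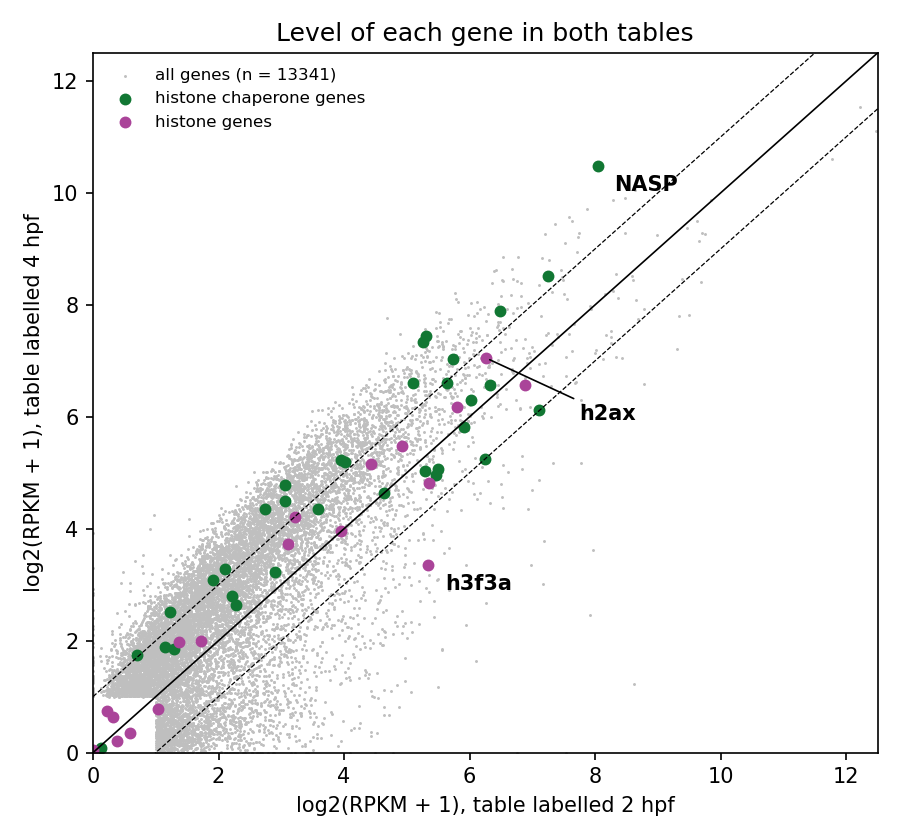
Level of each gene with at least 1 RPKM in either table (grey, n = 13341) as log2(RPKM + 1) in the 2 hpf table (x axis) and 4 hpf (y axis), with histone chaperone genes in green and histone genes in purple, including those under 1 RPKM. The solid line marks equal values and the dashed lines a 2-fold difference; 9 genes lie beyond the axes. NASP stands above the upper dashed line at the high end, h2ax between the lines and h3f3a below the lower one.

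Ratios within a table do not change when all its values are multiplied by a common factor, although quantile normalization can change them. NASP was 6.64 times the RPKM of h3f3a in the 2 hpf table and 154 times in the 4 hpf table, a 23.1-fold change of the ratio. The ratio of NASP to h2ax went from 3.47 to 10.8, and that of h2ax to h3f3a from 1.91 to 14.2. Against the summed RPKM of all 18 listed histone genes, NASP went from 0.636 to 3.07. These ratios compare reads per length of different transcripts in the precipitate and say nothing of protein.

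Other genes of the same variants were listed as well. Of 4 genes with H3.3 symbols, h3f3a and h3f3d (ENSDARG00000045248) made up nearly all of the family's RPKM. In the 2 hpf table they were equally abundant, at 39.5 and 39.8 RPKM, or 48.7% and 49.0% of the family. In the 4 hpf table h3f3d was at 27.2 RPKM, and the shares were 23.2% for h3f3a and 68.1% for h3f3d. The h3f3d difference of -0.53 was in the same direction as that of h3f3a and was not called. The ratio of h3f3a to h3f3d went from 0.994 to 0.340. Low values were found for h3f3b.1, at 1.57 and 2.94 RPKM, and for H3-3B, at 0.241 and 0.551 RPKM. Summed over the 4 genes, H3.3 transcripts were at 81.1 and 39.9 RPKM. These genes encode the same or nearly the same protein, and where their transcripts are alike, reads could have been divided between them or dropped by the authors' counting.

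H2A.X symbols sat on 3 genes, which kept their proportions. The gene h2ax held 67.3% of their summed RPKM in the 2 hpf table and 70.2% in the 4 hpf table. For h2ax2 the levels were 29.3 and 43.7 RPKM, and for h2ax1 they were 7.57 and 12.2 RPKM. The differences of 0.56 for h2ax2 and 0.62 for h2ax1 were close to the 0.79 of h2ax, and none of the 3 was called. Reads that these genes share with each other or with other H2A genes could likewise have been divided between them, so the separate values are uncertain.

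Among the remaining histone genes none was called under the main setting. In the set of 13 histone genes past the filter, none was called higher, against the background of 33%. The only one called lower was h3f3a, which is 7.69% against the background of 10.9%. The difference of hist2h3c, 0.989, stopped just short of the threshold. With pseudocount 0.1, 1 of 13 was called higher, against 6088 of 13341 genes. With both tables brought to the same sum the count was 3 of 13, against 6422. Under the main setting the median difference of the 13 was 0.38, below the 0.66 of all genes. At 10 RPKM or more, 0 of 10 were called higher, against 57.4% of all such genes. At that level 1 of 10 was called lower, or 10% against 6.79%, and the median was 0.47 against 1.15. The gene called lower was h3f3a, which reached 10 RPKM only in the 2 hpf table, while hist2h3c and h2ax1 did so only in the 4 hpf table. The values at this level therefore partly follow from the filter. Directions within the set turned with scaling, since 9 of 13 had a positive difference with RPKM as deposited and 1 of 13 under median-ratio scaling. The median of all genes moved as well, from 1.58-fold to 0.949-fold. Under median-ratio scaling 0 of the 13 were called higher and 3 lower, against 347 and 2533 of all 13341 genes. Replication-type H2A genes were abundant: hist1h2a3 was at 118 and 93.6 RPKM, hist1h2a11 at 54.4 and 71.1 RPKM, and hist1h2a4 at 20.5 and 34.5 RPKM. The H2A.Z gene H2AZ2 was at 14.4 and 14.5 RPKM, and hist2h2l at 1.04 and 0.707 RPKM. Of the replication-type H3 genes, hist2h3c was at 8.33 and 17.5 RPKM and h3c13a at 2.31 and 2.98 RPKM. Transcripts of replication-type histone genes usually end in a stem-loop and carry no poly(A) tail, while the sequenced molecule is labelled polyA RNA, and how far this affects their values was not tested.

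With h1m unmeasured, the linker histone gene H1-10 was at 0.503 and 0.268 RPKM, under the filter. Below it also were H2BK1, at 0.168 and 0.669 RPKM, and MACROH2A2, which was listed at 0.0334 RPKM only in the 4 hpf table. The reference held 33 histone symbols by the pattern used, and 15 of their IDs, h1m among them, were in neither table.

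NASP was next compared with the other histone chaperones. Of 32 chaperone genes with at least 1 RPKM, 16 were called higher in the 4 hpf table, which is 50% against the background of 33%. None was called lower, against the background of 10.9%. Of the 16, SSRP1 (ENSDARG00000016994) passed the filter only in the 4 hpf table. The median difference of the 32 genes was 1.01, against 0.66 for all genes. At 10 RPKM or more the share was 12 of 23, or 52.2%, which is near the background of 57.4% at that level. The median of 1.17 was near the 1.15 of all such genes. CHAF1B, NAP1L4 and ubn1 reached 10 RPKM only in the 4 hpf table. Under median-ratio scaling, 3 of 32 were called higher and 6 lower, against 347 and 2533 of all 13341 genes under that scaling. There 17 of the 32 had a positive difference, against 26 with RPKM as deposited. NASP alone held 19.3% of the summed RPKM of the list in the 2 hpf table and 42.6% in the 4 hpf table. It had both the highest level and the widest difference of the list. Without NASP, the median difference of the other 31 was 0.97.

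Chaperones of replication and of the H3 and H4 supply lay with NASP in direction with RPKM as deposited. This direction was common: 57.4% of genes that reached 10 RPKM, and 33% of all genes past the filter, were called higher. The gene chaf1a, for the large subunit of the CAF-1 complex that deposits H3 and H4 behind the replication fork, was at 151 and 366 RPKM, a difference of 1.27. That is near the median of 1.23 for genes with at least 100 RPKM. CHAF1B, the partner of chaf1a, was at 5.65 and 19.5 RPKM. ASF1B, which hands H3 and H4 on to CAF-1, was at 1.35 and 4.70 RPKM, and TONSL, a reader of newly placed H4, at 3.31 and 8.71 RPKM. RBBP4, which binds H4 in several complexes, was at 11.0 and 19.5 RPKM and was not called. Against chaf1a in the same table, NASP went from 1.74 to 3.89 times its RPKM.

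Among 6 genes of chaperones that place H3.3, 4 were called higher in the 4 hpf table, a count to be read against the 57.4% of all genes that reached 10 RPKM, as 5 of the 6 did. DAXX had a negative difference, as h3f3a did. ATRX, the remodeler that works with DAXX, was at 88.6 and 236 RPKM, and HIRA, the core of a separate H3.3 complex, at 14.4 and 36.2 RPKM. The HIRA partner genes ubn2a and ubn1 were at 33.3 and 95.9 RPKM and at 7.33 and 21.6 RPKM. CABIN1 was at 3.84 and 5.25 RPKM and DAXX, which binds H3.3 directly, at 38.1 and 31.8 RPKM, neither of them called. None of these 6 genes was called lower, against 6.79% of all genes that reached 10 RPKM and 10.9% of all past the filter. With so few genes, a count of none is near those shares. Grouping the chaperones by role was done after their values were seen.

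Chaperones of H2A and H2B were mixed. The NAP1 genes nap1l4a and NAP1L4 were at 37.4 and 160 RPKM and at 7.29 and 26.4 RPKM, with differences of 2.07 and 1.72. The nucleoplasmin gene of the egg, npm2b, was at 52.1 and 130 RPKM, while npm1a, which encodes the nucleolar protein nucleophosmin, was at 79.3 and 94.3 RPKM. FACT, the complex that moves H2A and H2B aside for polymerases, was represented by SUPT16H at 44.2 and 32.6 RPKM and by SSRP1 (ENSDARG00000037397) at 48.7 and 96.2 RPKM. A second ID with the symbol SSRP1 (ENSDARG00000016994) was at 0.620 and 2.36 RPKM.

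Of 6 chaperone genes with a negative difference, 4 were of the acidic ANP32 and SET families, and the others were SUPT16H and DAXX. ANP32B was at 136 and 68.5 RPKM and ANP32E, which removes H2A.Z, at 74.9 and 37.0 RPKM. Their differences of -0.98 and -0.998 stopped just short of the threshold. ANP32A was at 43.3 and 30.1 RPKM. SET symbols on 2 IDs were nearly level, at 64.1 and 77.6 RPKM (ENSDARG00000031495) and at 59.3 and 55.7 RPKM (ENSDARG00000003920). SPTY2D1, which binds H3 and H4, was at 38.6 and 173 RPKM and came next to NASP in the size of its difference, at 2.13.

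**Figure D3:**
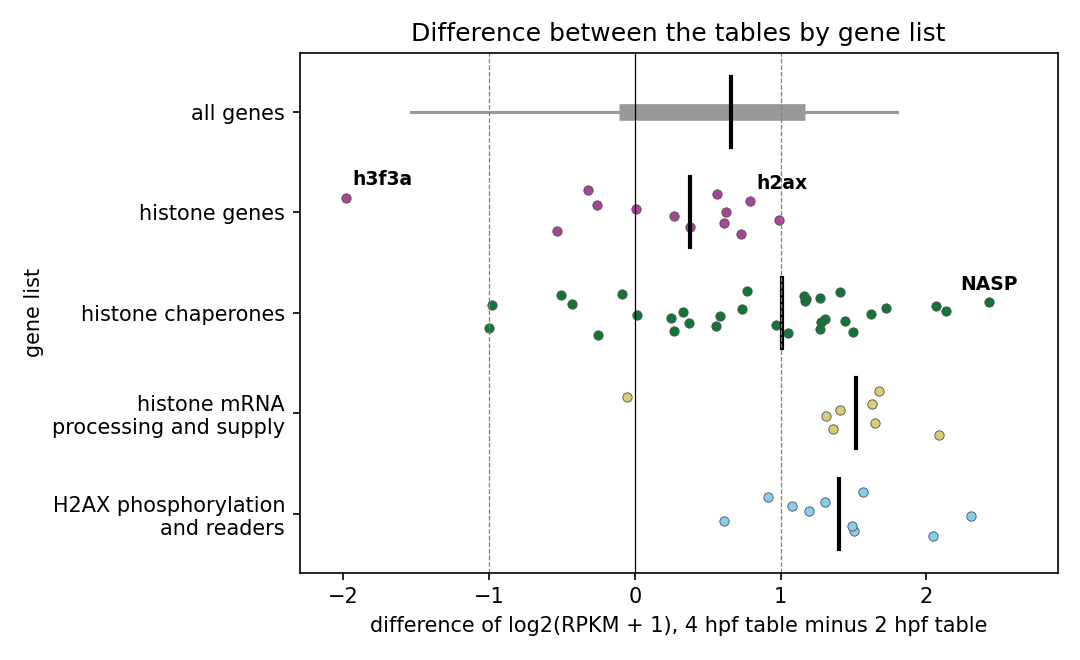
Change in log2(RPKM + 1) from the 2 hpf to the 4 hpf table (x axis), for each gene of 4 lists with at least 1 RPKM in either table; points are genes and black bars medians. For all 13341 genes the bar is the median, the thick line spans the quartiles and the thin line the 5th to 95th percentile, from -1.54 to 1.80. h3f3a lies left of that span and NASP right of it, while h2ax lies near the median of all genes.

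Genes that supply histone mRNA were mostly on the side of NASP. Of 8 with at least 1 RPKM, 7 were called higher, or 87.5% against the background of 33%, with a median difference of 1.52. At 10 RPKM or more the count was 6 of 7, or 85.7% against 57.4%, with a median of 1.63 against 1.15. Of these, npat, CPSF2, CPSF3 and ERI1 reached 10 RPKM only in the 4 hpf table, so that count is no separate evidence of a difference. The count over all 8 fell to 1 under median-ratio scaling, where 1 was called lower. Over all 13341 genes the calls were 347 higher and 2533 lower under that scaling, against 4409 and 1452 with RPKM as deposited. The gene casp8ap2, known in mammals for a role in histone gene expression, was at 30.1 and 131 RPKM. The stem-loop binding protein gene slbp2 was at 23.0 and 75.6 RPKM, and npat, a coactivator of histone genes, at 8.04 and 27.4 RPKM. CPSF2 and CPSF3, subunits of the complex that cuts the ends of histone transcripts, were at 6.94 and 19.4 RPKM and at 5.43 and 16.0 RPKM. ERI1, an exonuclease of histone mRNA decay, was at 4.64 and 16.4 RPKM and SYMPK, a scaffold of the cutting complex, at 2.39 and 7.40 RPKM. The exception was SRRT, whose product works with the cap-binding complex, at 61.9 and 59.6 RPKM.

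Genes listed for H2A.X phosphorylation and its readers, among them others that act at DNA breaks such as RAD50, were mostly called higher. Of 10 measured, 8 were, or 80% against the background of 33%, with a median of 1.40. At 10 RPKM or more the count was 6 of 7, or 85.7% against 57.4%, with a median of 1.503 against 1.15. ATM and PRKDC passed the 1 RPKM filter only in the 4 hpf table. Likewise nbn, TOPBP1 and TP53BP1 reached 10 RPKM only there, so these counts partly follow from the filters. Under median-ratio scaling 2 of the 10 were called higher, against 347 of all 13341 genes under that scaling. The reader mdc1, which binds phosphorylated H2A.X, was at 27.2 and 115 RPKM. RAD50, a subunit of the complex that senses DNA ends, was at 11.1 and 58.9 RPKM, with a difference of 2.30, and its partner nbn at 5.81 and 19.2 RPKM. The ubiquitin ligase gene rnf8 was at 14.6 and 37.4 RPKM. Among genes of kinases that place the mark, ATR was at 2.08 and 7.68 RPKM, ATM at 0.625 and 2.43 RPKM, and PRKDC at 0.766 and 2.33 RPKM. PRKDC and the kinase gene VRK1, at 11.7 and 18.5 RPKM, were the members not called.

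The genes most like each of the 3 were found by the Euclidean distance of log2(RPKM + 1) over both tables, leaving out genes without a symbol or with only a clone name. With only 2 values per gene this is likeness in level and difference alone. For h2ax they were CTSB at 73.1 and 132 RPKM, serbp1b at 71.8 and 131 RPKM and SMC1A at 69.1 and 138 RPKM, at distances from 0.05 to 0.14. For h3f3a they were CAMSAP2 at 40.0 and 7.997 RPKM, wnt11f2 at 33.5 and 9.47 RPKM and PAICS at 30.0 and 8.91 RPKM, at distances from 0.19 to 0.39. NASP had no gene as close. Its nearest were ncl at 311 and 934 RPKM, HSP90AB1 at 354 and 966 RPKM and TOP1 at 233 and 841 RPKM, at distances from 0.65 to 0.78.

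**Figure D4:**
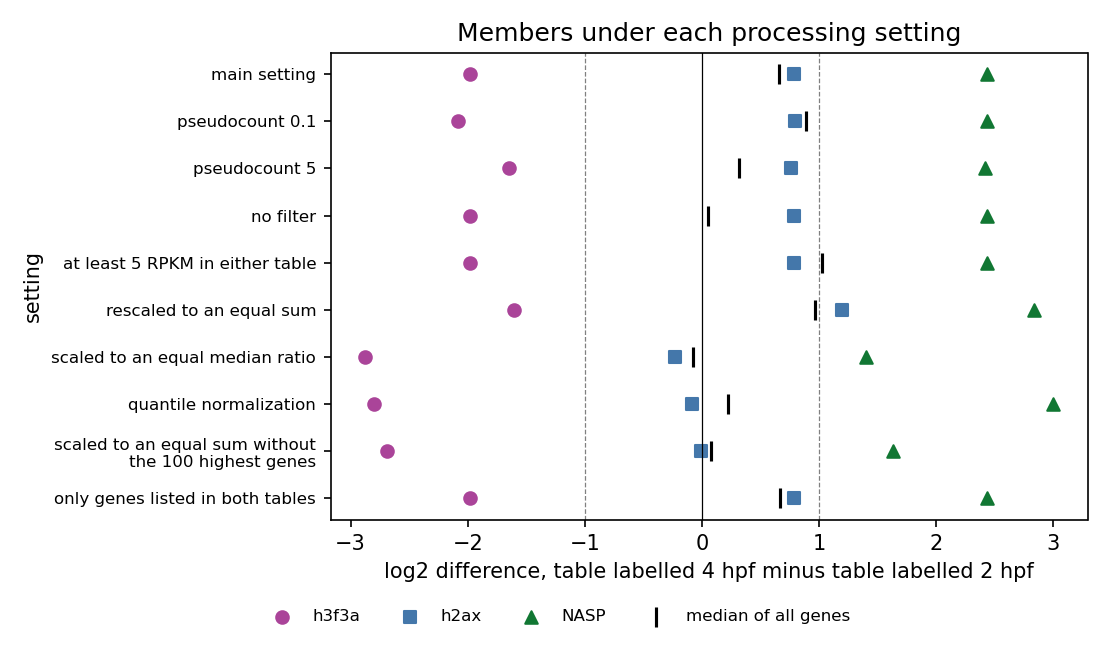
log2 difference, 4 hpf table minus 2 hpf table (x axis), of h3f3a, h2ax and NASP under the main setting and 9 others, with the median of all genes past the filter as a black tick; dashed lines mark the 2-fold threshold. h3f3a stays left of -1 and NASP right of 1 throughout, while h2ax lies below 0 under 3 scalings.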

How the data were processed

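The authors deposited RPKM, 1 value per Ensembl gene ID and age, with no header. That each is a mean over 2 replicates was taken from how the tables are named. Of values written with 7 significant digits, 92.7% (2 hpf table) and 92.9% (4 hpf table) end in 5, as a mean of 2 numbers with 6 digits often does. Build Zv9 and the tools bedtools 2.16.2, MACS2 2.0.10, TopHat2 2.1.1, Bowtie, Trimmomatic 0.36 and cutadapt 1.13 are named in the submitters' processing notes, without their roles; counter and annotation: not given in the sources used here. Only values above 0 are listed, and an ID missing from a table was set to 0 there. The reference named 20039 of 27205 IDs (73.7%); IDs sharing a symbol were not merged.

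Differences of log2(RPKM + 1) were computed in Python 3.11.15 with pandas 2.3.3 and numpy 2.4.6 wherever either table reached 1 RPKM, and checked on simulated data. With 1 mean per age no test was possible. Named genes are the 4 chosen ones, all histone genes past that filter, from each other list the 6 of highest level and the 3 of widest difference at 5 RPKM or more, and the 3 nearest genes of each. Others named to complete a complex or family, or as exceptions, were added after their values were seen, and so was the division of lists by family and role. All members and lists were chosen with earlier results of these data known. The values of 1 gene of the histone list are not reported here.

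Alternatives were pseudocounts of 0.1 and 5, no filter and a filter of 5 RPKM, scaling to the same sum, to the same sum without the 100 highest genes or to a median ratio of 1 over genes reaching 5 RPKM in each table, quantile normalization, genes listed in both tables only, a 4-fold threshold, and list matching through RefSeq synonyms.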

Additional observations from a re-analysis of the deposited data

How the results depend on the processing

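No paired analysis was possible because the tables hold only means, with no value per replicate, and for the same reason no replicate was left out. Depth is unknown and no replicate spread is available, which limits every value above. NASP was called under all 10 alternatives, 4-fold threshold included. h3f3a was called under 9 of 10, the exception being the 4-fold threshold, at -1.98. h2ax was uncalled under 9 of 10, and the scaling to the same sum brought it to 1.19. Counts over all genes, 4409 higher and 1452 lower, became 347 and 2533 under median-ratio scaling. They were 849 and 2205 when the sums without the 100 highest genes were made equal, 1907 and 371 with pseudocount 5, and 291 and 342 when 4-fold was required. Quantile normalization called 1369 genes higher, and the 5 RPKM filter left 607 lower. List medians relative to that of all genes were counted as moved when they shifted by over 0.3, a tolerance chosen here. Without a filter, the median of all genes includes many genes near 0, and the relative medians were 0.25 for histone genes (main -0.28), 0.92 for chaperones (main 0.35), 1.31 for histone mRNA supply (main 0.85) and 1.35 for H2A.X phosphorylation and readers (main 0.74). With a filter of 5 RPKM they were 0.044 for chaperones and 0.49 for histone mRNA supply. Matching through RefSeq synonyms shifted none of the 4 list medians by more than that tolerance.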
